A study of Homo sapiens with 12 samples.

Results

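Histone genes were followed in MUM2B and OCM1, 2 human lines of uveal melanoma, a tumour of eye melanocytes, as wild type cells and as cells overexpressing the long noncoding RNA CANT1. Every gene of the PrimeView platform annotation whose older or current symbol marks it as a core or linker histone was taken, which gave 86 genes, and 74 of them had a probe set that named no other gene. The 74 are part of 18134 genes measured in this way, and each is represented by its brightest such probe set. Of the 86, 71 are clustered genes and 15 are replacement genes outside the clusters. With a probe set of their own there were 62 clustered and 12 replacement genes. The other 12 members (H4C11, H2AC18, H2AC19, H3-7, H3C13, H3C14, H3C15, H4C14, H4C15, H2AB1, H2AB2 and H2AB3) were represented only in probe sets naming several genes, and 3 pseudogenes were not counted as members.

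Histones package DNA. A nucleosome is DNA wrapped on the core histones H2A, H2B, H3 and H4, and H1 linker histones bind where the DNA enters and leaves it. The clustered genes lie mainly on chromosome 6, in the HIST1 cluster, are made mostly in S phase while DNA is copied, and give mRNAs most of which end in a stem-loop in place of a poly(A) tail. Typical replacement genes are made through the cell cycle with ordinary polyadenylated mRNAs, and their proteins enter chromatin outside replication. Here the class holds every member outside the clusters, so this need not be true of each, for example of H2AX, H1-7 or H1-8. Some clustered genes also give polyadenylated transcripts in cells that divide slowly or differentiate. The labels name the standard Affymetrix protocol for biotinylated cRNA, which starts from poly(A) tails. Transcripts that end in a stem-loop are therefore read poorly, and a dim clustered gene need not be low in the cells. How much of a level comes from either form was not measured.

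Each line had 3 wild type and 3 CANT1 arrays, numbered as replicates, from total RNA of bulk cultures. Replicate 1 of all 4 groups carries a growth label with selection in puromycin medium, while the label of replicates 2 and 3 gives DMEM with serum. The controls are wild type cells, no empty vector is described, and the labels do not say whether CANT1 cells were 1 clone or a pool. The labels do not name separate cultures for the replicates either, so p-values cover only the array-to-array spread, possibly a technical one. In bulk RNA, fewer cells of a state and less RNA per cell cannot be told apart. Values are scaled signals, with each array set to a trimmed mean of 500. Differences are on the log2(signal + 32) scale, which understates changes of dim genes, and ± is the standard error from limma. A gene is called at an adjusted p under 0.05 over all genes tested, and it was tested where its signal reached 100 on at least 3 arrays. Every comparison was fitted on all 12 arrays and on replicates 2 and 3 alone, and a difference given for replicate 1, which has 1 array per group, is a value without a test. The small number of arrays limits the precision of both.

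The replicate 1 arrays stood apart. The log2 gap between the 3′ and 5′ control probe sets of ACTB ran from 2.15 to 2.51 on them and from 0.47 to 0.91 on the other 8. The OCM1 wild type array of replicate 1 had a mean correlation over genes of 0.895 with its own line, against 0.956 to 0.981 on the other 11 arrays. Of 8 pigment cell markers 7 were measured. In MUM2B the pigment genes PMEL and TYR and the pigment cell factors MITF and SOX10 had signals from 102 to 197 on all 6 arrays, and MLANA, TYRP1 and S100B stayed below 100. In OCM1 the melanosome antigen MLANA stood between 13457 and 16241 on 5 arrays and at 2397 on the wild type array of replicate 1, where SOX10 was at 154, below the 197 of the MUM2B array of that set. Summed signals of the 7 markers ran from 620.3 to 829 in wild type and 641 to 734 in CANT1 MUM2B cells, and from 14219 to 76992 in wild type and 75702 to 81555 in CANT1 OCM1 cells.

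Promoter sequences show how alike these genes are, and how the types differ. They were taken from RefSeq (GRCh38.p14) for 80 of the 86 members, not including H2AC12, H3C11, H3C12, H4C1, H4C3 and H3-5. In the 250 bases before the gene start, on either strand, CCAAT was found in 84.8% of 66 clustered and 78.6% of 14 replacement promoters, against 33.0% of 27305 promoters of all genes. TATAAA was in 66.7%, 28.6% and 11.1% of them. The octamer ATTTGCAT, known from H2B promoters, was in 77.8% of clustered H2B and 68.8% of clustered H2A promoters, in 0 of 6 clustered H1 and 0 of 13 clustered H4 promoters, and in 1.66% of all. GGTCCG, an H4 promoter element, was in 12 of 13 clustered H4 promoters (92.3%) and in 9.33% of all. The motifs were chosen with histone promoters in mind, and a match describes letters, not a bound site.

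The 150 bases before the start are shown for genes on which the results turn, 5′ to 3′ on the gene's strand, with matches to the 4 motifs on either strand in capitals. Adjacent capitals can hold overlapping matches. H2AC6 had the largest rise in OCM1, H2BC12 the largest difference between the lines in CANT1 effect on replicates 2 and 3 (on all arrays it was H2AC6), and H1-2 the largest difference of a clustered gene between the lines in both fits. H2BC21 and H2AC20 are divergent neighbours, of which the first rose and the second fell in OCM1 on replicates 2 and 3. H4C12 shows the H4 element, and H3-3B is the replacement gene that rose in OCM1.
H2AC6, chr6:26124022-26124171, plus strand: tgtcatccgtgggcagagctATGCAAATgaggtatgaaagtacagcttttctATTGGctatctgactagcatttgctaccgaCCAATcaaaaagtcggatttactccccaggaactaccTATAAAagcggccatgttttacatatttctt
H2BC12, chr6:27146859-27147008, minus strand: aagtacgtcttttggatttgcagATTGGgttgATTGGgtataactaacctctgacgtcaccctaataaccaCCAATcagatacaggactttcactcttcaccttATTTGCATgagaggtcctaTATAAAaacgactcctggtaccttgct
H1-2, chr6:26056471-26056620, minus strand: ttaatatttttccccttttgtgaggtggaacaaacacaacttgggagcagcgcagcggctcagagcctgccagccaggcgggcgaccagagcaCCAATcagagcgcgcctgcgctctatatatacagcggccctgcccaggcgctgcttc
H2BC21, chr1:149886683-149886832, minus strand: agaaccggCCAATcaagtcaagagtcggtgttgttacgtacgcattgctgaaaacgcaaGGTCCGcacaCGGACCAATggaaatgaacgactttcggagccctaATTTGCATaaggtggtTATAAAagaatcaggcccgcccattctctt
H2AC20, chr1:149886768-149886917, plus strand: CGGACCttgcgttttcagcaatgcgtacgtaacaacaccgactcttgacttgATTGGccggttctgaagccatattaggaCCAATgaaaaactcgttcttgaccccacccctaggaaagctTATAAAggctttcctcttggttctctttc
H4C12, chr6:27831561-27831710, minus strand: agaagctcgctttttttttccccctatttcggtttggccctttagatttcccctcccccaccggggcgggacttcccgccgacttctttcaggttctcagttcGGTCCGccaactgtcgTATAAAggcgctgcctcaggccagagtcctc
H3-3B, chr17:75779780-75779929, minus strand: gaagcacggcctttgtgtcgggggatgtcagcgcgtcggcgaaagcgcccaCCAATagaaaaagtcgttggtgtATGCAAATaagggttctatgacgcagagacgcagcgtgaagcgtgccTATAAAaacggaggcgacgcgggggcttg

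H2AC6, H2BC12, H2BC21 and H3-3B each hold CCAAT, the octamer and TATAAA in the part shown. H1-2 holds a CCAAT alone and H4C12 holds GGTCCG and TATAAA. The windows of H2BC21 and H2AC20 overlap on opposite strands of chromosome 1, and both hold GGTCCG on one strand or the other.

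Most clustered genes were dim. On no more than 2 arrays did any of 42 of the 62 reach the minimum of 100, and these were not tested. Their signals ran from 13.4 to 119, with a median of the highest signal per gene of 48.1. Of the clustered genes 20 were tested on all arrays and 16 on replicates 2 and 3. Of these 16, 2 (H2AC8 and H2AC11) reached the minimum only in OCM1, so their tests between the lines rest on a gene that had to be high in OCM1. On all arrays the same holds for H2AC8 and H4C9, and for H2BC11, which reached it only in OCM1 CANT1 cells. Of the replacement genes 9 were tested in both fits. The oocyte linker histone H1-8 (47.5 to 65.4), H3-5 (10.8 to 15.5) and H3-3A (11.9 to 14.7) were too dim on their own probe sets. For H3-3A, which encodes the same protein as H3-3B, that probe set is no measure of the gene, because the brighter probe sets also name another gene.

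**Figure D1:**
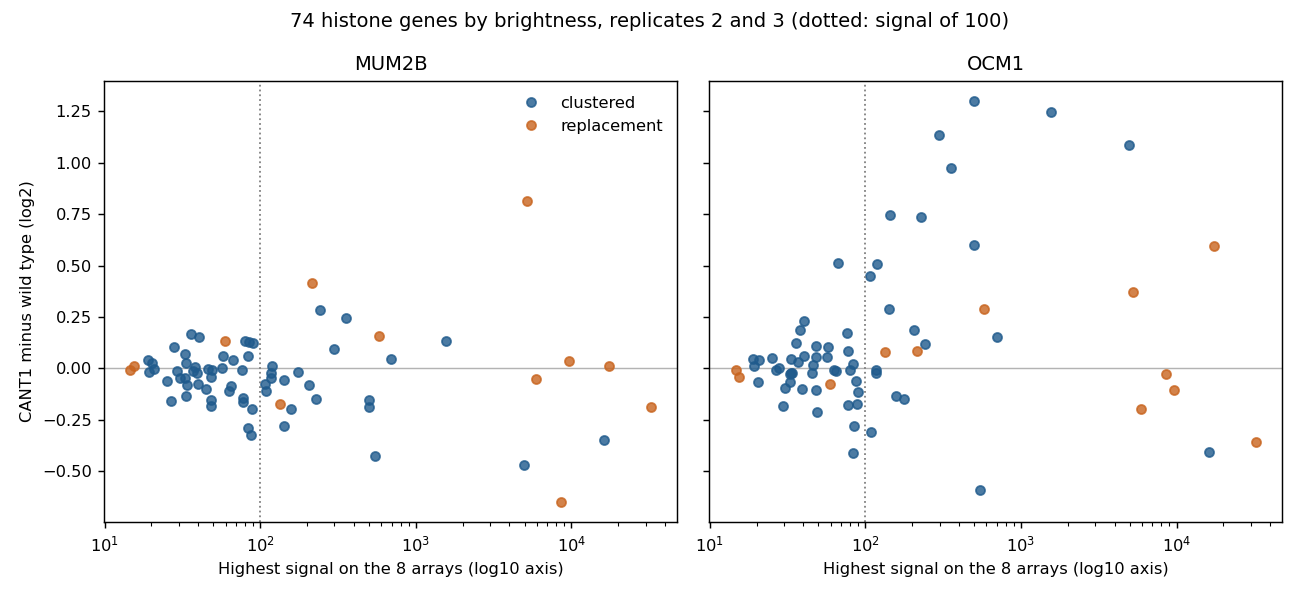
The CANT1 minus wild type difference (log2) on replicates 2 and 3 is plotted against the highest signal on those 8 arrays (log10 axis) for 74 histone genes, with clustered genes in blue and replacement genes in orange. The largest differences in OCM1 belong to clustered genes to the right of the dotted line at a signal of 100.

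Over all 62 clustered genes with no filter, the median CANT1 minus wild type difference on replicates 2 and 3 was −0.032 in MUM2B, with 21 above zero, and 0.019 in OCM1, with 34 above zero. The same medians over all 18134 genes were −0.0019 and 0.028. For the 12 replacement genes they were 0.012 and −0.017. Because 42 of the 62 clustered genes lay about or under the signal minimum, where the added 32 keeps differences small, the median of that class says little of its brighter members.

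In OCM1, CANT1 cells had more signal of 7 clustered histone genes, namely the linker histone H1-2, 3 H2A genes and 3 H2B genes. On replicates 2 and 3, 8 of the 25 tested histone genes rose, where 13.7% of all genes rose, and 3 fell, where 9.63% of all genes fell. Of the 16 clustered genes 7 rose and 2 fell, and of the 9 replacement genes 1 rose and 1 fell. By type, the clustered genes that rose were 1 of 1 tested H1 genes, 3 of 6 H2A and 3 of 4 H2B, while 0 of 3 H3 and 0 of 2 H4 genes rose. Without H2AC8 and H2AC11, 5 of the other 14 clustered genes and 1 of 4 H2A genes rose. The types were not compared by a test. Clustered genes without a probe set of their own, H3 and H4 genes among them, are not in these counts. The counts therefore do not show that no H3 or H4 gene rose. On all 12 arrays 1 of 29 rose and 0 fell, against 0.102% and 0.0157% of all genes.

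H2AC6, a clustered H2A gene, had signals of 162 and 194 in wild type OCM1 cells and of 467 and 501 in CANT1 cells on replicates 2 and 3. On replicate 1 it stood at 134 in wild type and 316 in CANT1 cells. All 3 CANT1 arrays were above all 3 wild type arrays. The rise was 1.30 ± 0.10 on replicates 2 and 3 (limma adjusted p = 1.4e-05, n = 2 arrays per group), or 2.46-fold, and 1.22 ± 0.17 on all arrays (limma adjusted p = 0.0306, n = 3). The second call was lost in 11 of 22 alternatives, with an adjusted p of up to 0.232. These were the fits without the set term, with the replicate block or on only the arrays compared, and those leaving out any 1 of the 8 arrays of replicates 2 and 3. The first call was kept in all 17 alternatives that tested it. The only probe set of its own that H2AC6 has is an _s_at set, which may also bind transcripts of close relatives. Leaving out x_at and s_at probe sets therefore could not test either call.

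H1-2, a linker histone, had signals of 613 and 599 in wild type OCM1 cells and 1566 and 1397.5 in CANT1 cells, and 593 and 1157 on replicate 1. Here too the groups did not overlap. The rise was 1.24 ± 0.12 on replicates 2 and 3 (limma adjusted p = 4.8e-05) and 1.14 ± 0.20 on all arrays, which was not called (limma adjusted p = 0.0834). Its probe set, an _x_at set, may also bind transcripts of close relatives.

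H2AC8 and H2AC11 are clustered H2A genes. H2AC8 went from 109 and 121 to 283 and 298, and from 59.1 to 132 on replicate 1. H2AC11 went from 108 and 131 to 213 and 227, and from 113 to 127 on replicate 1. The groups of H2AC8 did not overlap, whereas the replicate 1 CANT1 array of H2AC11 lay below 1 wild type array. The rises on replicates 2 and 3 were 1.13 ± 0.10 for H2AC8 (limma adjusted p = 3.1e-05) and 0.73 ± 0.12 for H2AC11 (limma adjusted p = 0.00142). Second, dimmer probe sets of these genes read 0.20 and 0.16.

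Of the H2B genes, H2BC12 is the brightest that rose. It had 2404 and 2130.2 in wild type and 4940.2 and 4744 in CANT1 OCM1 cells on replicates 2 and 3, but 4723 in wild type and 3796 in CANT1 cells on replicate 1. The wild type array of replicate 1 thus stood among the CANT1 arrays, and the 2 sets ran in opposite directions. The rise on replicates 2 and 3 was 1.09 ± 0.12 (limma adjusted p = 0.000155), against −0.31 on replicate 1. H2BC21 stood at 166 and 148 in wild type and 355 and 323 in CANT1 cells, and at 101 and 122 on replicate 1, where the CANT1 array was below the wild type arrays of the other set. Its rise was 0.97 ± 0.09 on replicates 2 and 3 (limma adjusted p = 5.5e-05) and 0.21 on replicate 1. Dimmer probe sets of H2BC21, at a mean signal of 34.8, read −0.051 on replicates 2 and 3. That of H2BC12, at 27.8, read 0.0065. H2BC5 went from 278 and 318 to 499 and 437, with 231 and 325 on replicate 1 and no overlap between the groups. Its rise of 0.60 ± 0.13 (limma adjusted p = 0.00831) was lost without the wild type or the CANT1 array of replicate 2, with an adjusted p of up to 0.076. Its 3 probe sets read 0.60, 1.18 and 0.42 on replicates 2 and 3, and 0.44, −0.76 and 0.37 on replicate 1.

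2 clustered genes fell in OCM1 on replicates 2 and 3, and both fell in MUM2B as well. H2AC20, an H2A gene of the HIST2 cluster, had 447 and 549.7 in wild type and 299 and 339.9 in CANT1 OCM1 cells. On replicate 1 it was dimmer and ran the other way, from 93.2 to 202, so the groups overlapped. The fall was −0.59 ± 0.14 (limma adjusted p = 0.0102), against 0.90 on replicate 1, and it was lost under 3 of 19 alternatives (the mean of its probe sets, without wild type replicate 3, without CANT1 replicate 2), with an adjusted p of up to 0.0952. H2BC21, which starts on the other side of the short stretch shown above, rose on the same arrays. H4C3, an H4 gene, had 14934 and 15793 in wild type and 10554 and 12706 in CANT1 cells, and 24257 and 23852 on replicate 1. It fell by 0.41 ± 0.11 on the log2 scale (limma adjusted p = 0.0236), lost without either wild type array or CANT1 replicate 2, with an adjusted p of up to 0.205.

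The other 7 tested clustered genes were not called in OCM1. Their differences ran from −0.15 (H3-4) to 0.29 (H3C4). H2BC11, tested on all arrays only and only through its OCM1 CANT1 signals, had 57.7, 72.9 and 66.1 in wild type and 109, 134 and 143 in CANT1 cells, with no overlap, at 0.72 ± 0.13 (limma adjusted p = 0.0844, not called). There were 12 probe sets naming several histone genes and 3 naming a histone gene with another gene, and none of them gives a gene's value here. Of the 12, 4 read between 0.58 and 1.20 on replicates 2 and 3 and 0.08 to 0.65 on replicate 1. The set at 0.58 and 0.08 had signals from 8780 to 16619, and the other 3 had signals from 81.6 to 1173. These 4 are not assigned to clustered or replacement genes or to a type here. The counts by type above therefore leave them out. The 3 that name a histone gene with another gene, at signals from 10091 to 22196 over the 12 arrays, read 0.23 to 0.28, and −0.74 to −0.57 on replicate 1. Another of the 12 read −0.20 on replicates 2 and 3 and 2.47 on replicate 1, with signals from 166 to 1210.5 over the 12 arrays.

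**Figure D2:**
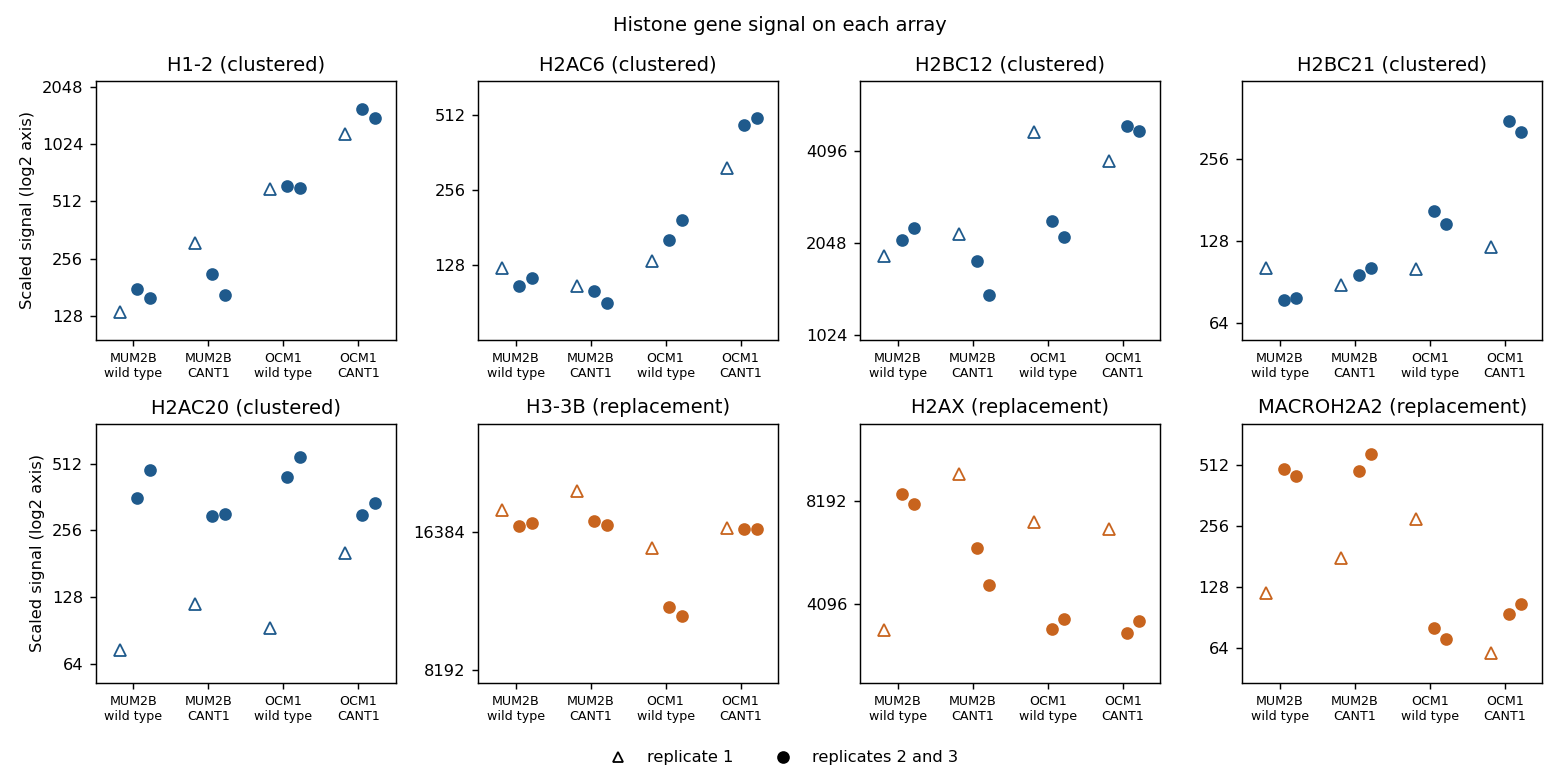
The scaled signal (log2 axis) of 8 histone genes on each of the 12 arrays is drawn by group, with replicate 1 as open triangles and replicates 2 and 3 as filled circles. H1-2 and H2AC6 are highest on all 3 CANT1 arrays of OCM1. H2BC12, H2AC20, H2AX and MACROH2A2 have replicate 1 arrays far from the other arrays of their group.

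Among the replacement genes in OCM1, H3-3B, 1 of the genes for the replication-independent H3.3, had 11283 and 10770 in wild type and 16702 and 16630 in CANT1 cells. On replicate 1 it was 15181 and 16744. It rose by 0.59 ± 0.09 (limma adjusted p = 0.000805), against 0.14 on replicate 1, and 3 of its 4 probe sets read between 0.54 and 0.60 while the dimmest of them read 0.12. H2AZ1, which encodes the promoter-associated H2A.Z, fell from 32609 and 31348 to 23985 and 26025. That fall of 0.36 ± 0.09 (limma adjusted p = 0.0162) stood against a rise of 0.61 on replicate 1, from 21999 to 33673. It was lost without either wild type array or without CANT1 replicate 2, with an adjusted p of up to 0.132.

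The other 7 tested replacement genes were not called in OCM1 on replicates 2 and 3. The linker histone H1-10 was at 0.37 ± 0.15 and −1.04 on replicate 1. The macroH2A gene MACROH2A2 was at 0.29 ± 0.11 and −1.74 on replicate 1, and MACROH2A1 at −0.20 ± 0.09 and −0.19. H2AX, which is phosphorylated at DNA breaks, was at −0.026 ± 0.12 and −0.059. H2AZ2 was at −0.10 ± 0.10 (0.042 on replicate 1), H2AJ at 0.083 ± 0.13 (0.61) and the testis linker histone H1-7 at 0.079 ± 0.13 (−0.026).

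In MUM2B no tested clustered gene was called higher in CANT1 cells. On replicates 2 and 3, 2 of 25 histone genes rose, where 14.4% of all genes rose, and 4 fell, where 10.7% of all genes fell. All 3 clustered calls were falls, and the replacement genes gave 2 rises and 1 fall. On all arrays 0 of 29 were called in either direction, as were 0% and 0% of all genes. At an unadjusted p under 0.05, 0 of the 29 and 220 of all genes passed. The 3 clustered genes with the smallest p there were H1-2 (0.43 ± 0.20), H2BC15 (−0.19 ± 0.12) and H3C7 (−0.15 ± 0.11), all with limma adjusted p = 1.

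H2BC12 had 2087 and 2282 in wild type and 1779.6 and 1381 in CANT1 MUM2B cells, and 1858 and 2179 on replicate 1. The fall of 0.47 ± 0.12 on replicates 2 and 3 (limma adjusted p = 0.0186) stood against 0.23 on replicate 1. It was lost without either wild type array or CANT1 replicate 3, with an adjusted p of up to 0.175. H2AC20 had 359 and 477 against 296 and 303, a fall of 0.43 ± 0.14 (limma adjusted p = 0.042), and rose from 74.0 to 119 on replicate 1. It was lost in 6 of 19 alternatives, among them those without wild type replicate 3 or either CANT1 array, with an adjusted p of up to 0.321. H4C3 had 16135 and 14316 against 12368 and 11541, a fall of 0.35 ± 0.11 (limma adjusted p = 0.0437), and rose from 15455 to 23025 on replicate 1. Its call was lost in 10 of 18 alternatives, 5 of them leaving out 1 array (wild type replicate 2, either CANT1 array or either OCM1 wild type array), with an adjusted p of up to 0.261.

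H1-2 was at 178 and 159 in wild type and 213 and 165 in CANT1 MUM2B cells on replicates 2 and 3, where the groups overlapped (0.14 ± 0.12, not called). On replicate 1 it was at 134.5 and 309. H2AC6 was at 106 and 114 against 101 and 90.4 (−0.15 ± 0.10, not called). The other 11 uncalled clustered genes lay between −0.28 (H3C4) and 0.29 (H2AC25).

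Of the replacement genes in MUM2B, H2AX had 8598 and 8025 in wild type and 5985 and 4663 in CANT1 cells, but 3437 and 9793 on replicate 1. The fall of 0.65 ± 0.12 on replicates 2 and 3 (limma adjusted p = 0.00367), kept in all 19 alternatives, stood against a rise of 1.50 on replicate 1. H1-10 rose from 2089 and 2042 to 2999.5 and 4443, by 0.81 ± 0.15 (limma adjusted p = 0.00405), while on replicate 1 it was at 3352 and 2832. Its other, dimmer probe set read 0.019. H2AJ rose from 139 and 134 to 171 and 216, by 0.42 ± 0.13 (limma adjusted p = 0.0411), and was at 174 and 137 on replicate 1. That call was lost in 9 of 17 alternatives, 5 of them leaving out 1 array (either wild type array, CANT1 replicate 3 or either OCM1 wild type array), with an adjusted p of up to 0.298. Not called were H2AZ1 (−0.19 ± 0.09, 0.27 on replicate 1), H1-7 (−0.17 ± 0.13, −0.29), MACROH2A2 (0.16 ± 0.11, 0.47), MACROH2A1 (−0.052 ± 0.09, 0.46), H2AZ2 (0.034 ± 0.10, 0.63) and H3-3B (0.012 ± 0.09, 0.14).

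**Figure D3:**
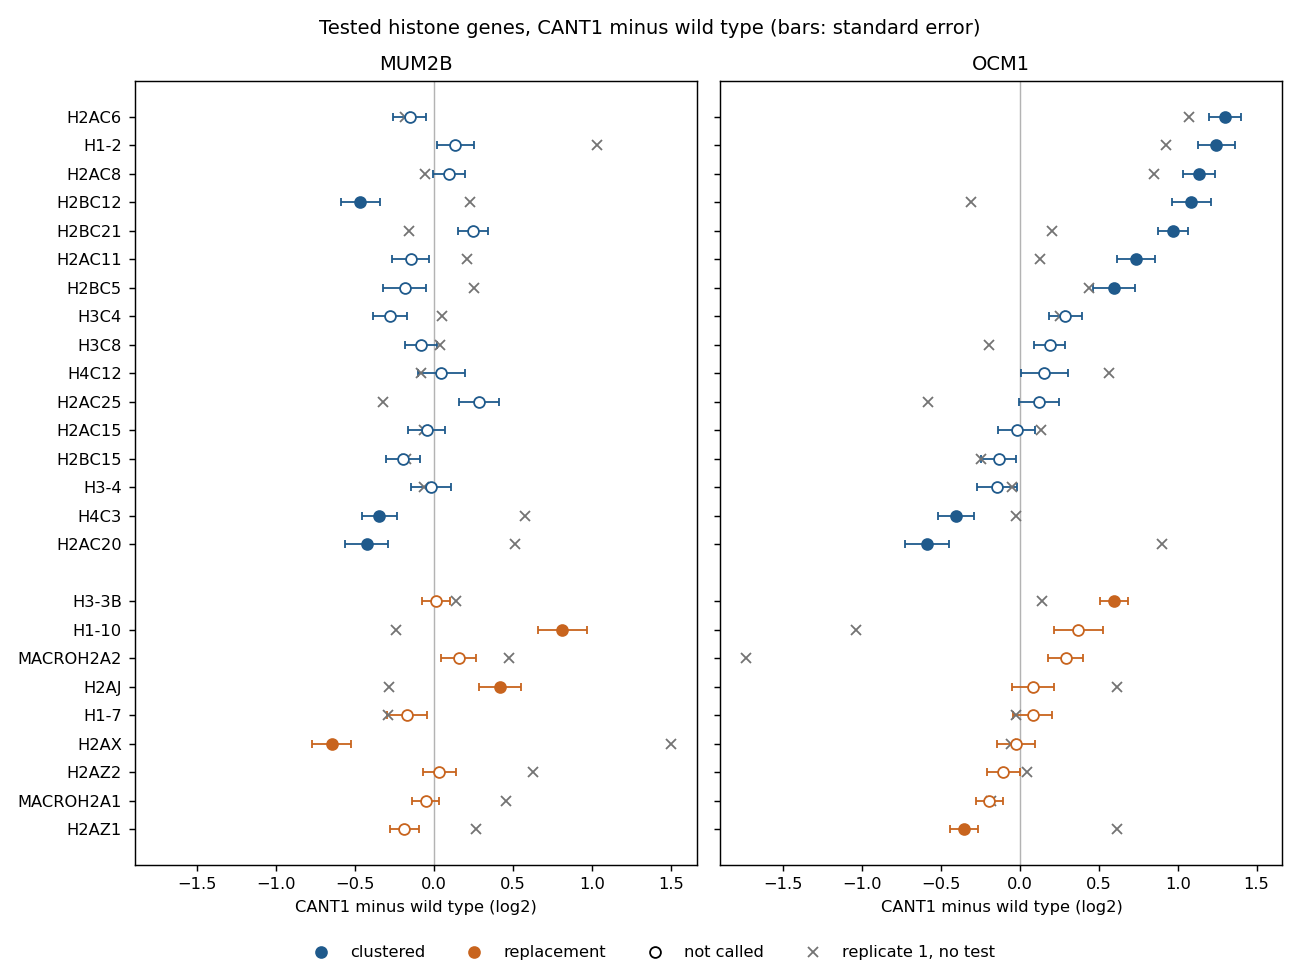
The CANT1 minus wild type difference (log2, dots with standard error bars) on replicates 2 and 3 is shown for 25 tested histone genes in MUM2B and OCM1, filled where called, with the replicate 1 difference as a grey cross. The 7 clustered genes that rose in OCM1 are on the right of zero there and within 0.47 of zero in MUM2B, and many crosses lie on the other side of zero from their dot.

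Genes that serve DNA copying and histone supply mostly fell or were not called. These lists were chosen with results of these data known, so their directions are no independent support. Of all genes on replicates 2 and 3, 13.7% rose and 9.63% fell in OCM1, and 14.4% rose and 10.7% fell in MUM2B. In this and the next 3 paragraphs the last value in a bracket is the replicate 1 difference. S phase replication genes fell in 14 of 25 and rose in 0 in OCM1 on replicates 2 and 3, at a median of −0.47, and −0.30 on replicate 1. In MUM2B 18 of 25 fell and 0 rose, at a median of −0.58, but of 1.48 on replicate 1. On the same arrays the median over all tested genes was 0.038 in OCM1 and 0.0046 in MUM2B. Examples in OCM1 are the replication fork gene CDC45 (−0.76 ± 0.14, limma adjusted p = 0.00269, −0.39) and the helicase subunit MCM5 (−0.76 ± 0.12, limma adjusted p = 0.00121, 0.18). In MUM2B they are the fork subunit GINS2 (−1.12 ± 0.20, limma adjusted p = 0.00285, 3.04) and CCNE2, a cyclin of S phase entry (−1.53 ± 0.23, limma adjusted p = 0.00124, 2.61). The number of cells copying DNA was not measured, and the part of S phase in the histone values was not tested.

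Mitosis genes fell in 15 of 20 and rose in 0 in OCM1 (median −0.48, −0.097 on replicate 1), for example the ubiquitin enzyme UBE2C (−1.01 ± 0.10, limma adjusted p = 6.72e-05, −1.53) and the kinetochore gene CENPF (−0.85 ± 0.09, limma adjusted p = 0.000111, 0.47). In MUM2B 1 of 20 rose, the spindle checkpoint kinase BUB1 (0.41 ± 0.10, limma adjusted p = 0.0102, 0.24), and 0 fell (median −0.066, 0.61 on replicate 1). Of 9 genes of histone gene transcription and S phase entry, 0 rose in either line, 4 fell in MUM2B and 2 fell in OCM1, with replicate 1 medians of 0.44 and −0.38. The kinase CDK2 (−0.96 ± 0.13, limma adjusted p = 0.00044, 1.07) and its partner CCNA2 (−0.37 ± 0.10, limma adjusted p = 0.0184, −0.52) were those of OCM1. Those of MUM2B were the cyclins CCNE2, CCNE1 (−0.54 ± 0.11, limma adjusted p = 0.00527, 0.58) and CCNA2 (−0.37 ± 0.10, limma adjusted p = 0.017, 0.64) and the transcription factor YY1 (−0.40 ± 0.11, limma adjusted p = 0.0254, 0.44).

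Of 21 genes of histone mRNA processing and decay, 0 rose and 4 fell in OCM1, while 4 rose and 7 fell in MUM2B, beside the shares of all genes given above. The medians were −0.16 in OCM1 and −0.23 in MUM2B, and −0.041 and 0.075 on replicate 1. SLBP, which binds the histone stem-loop, fell in MUM2B (−0.45 ± 0.12, limma adjusted p = 0.0171, 0.43). LSM11, of the U7 particle that cuts histone mRNA, rose there (0.48 ± 0.10, limma adjusted p = 0.00599, −0.56), as did the terminal uridyl transferase TUT7 (0.83 ± 0.12, limma adjusted p = 0.00115, −1.12). The cap-binding gene NCBP1 fell in MUM2B (−0.48 ± 0.12, limma adjusted p = 0.013, 1.19) and in OCM1 (−0.44 ± 0.12, limma adjusted p = 0.0204, 0.65). The others that fell in OCM1 were SRRT (−0.67 ± 0.10, limma adjusted p = 0.00079, 0.11), the cleavage factor CSTF2 (−0.51 ± 0.11, limma adjusted p = 0.00848, 0.24) and the kinase SMG1 (−0.37 ± 0.09, limma adjusted p = 0.0169, −0.79).

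Of 28 genes of histone chaperones and deposition, 1 rose and 5 fell in OCM1, and 2 rose and 10 fell in MUM2B. The medians were −0.16 and −0.26, and −0.27 and 0.46 on replicate 1. CHAF1B, of the factor that places new histones behind the fork, fell in both, by 0.39 ± 0.10 in OCM1 (limma adjusted p = 0.0185, 0.25) and 0.58 ± 0.10 in MUM2B (limma adjusted p = 0.00296, 0.99). The H3-H4 chaperone ASF1A (−0.66 ± 0.11, limma adjusted p = 0.00242, 0.57) and HIRA, which deposits H3.3 (−0.56 ± 0.11, limma adjusted p = 0.00515, 0.73), fell in MUM2B, where the centromeric chaperone HJURP rose (0.53 ± 0.09, limma adjusted p = 0.00304, 0.23). In OCM1 SRCAP, which exchanges in H2A.Z, rose (0.59 ± 0.12, limma adjusted p = 0.00514, −0.12). TONSL (−0.60 ± 0.10, limma adjusted p = 0.00208, 0.14) and its partner MMS22L (−0.43 ± 0.14, limma adjusted p = 0.0478, −0.48) fell there. With limma on all arrays 0 genes of these 5 lists were called for CANT1 in either line. At an unadjusted p under 0.05 there were 1 in MUM2B, of the mitosis list, and in OCM1 5 of mitosis, 3 of the chaperones and 2 of histone mRNA processing.

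Control values also moved with the OCM1 groups. The ACTB 3′ to 5′ gap was 0.91 and 0.84 on the OCM1 CANT1 arrays of replicates 2 and 3 and 0.75 and 0.67 on their wild type arrays. The melanosome enzyme TYRP1 went from 13590 and 14005 to 2664 and 3789 on the same arrays, and from 922 to 16138 on replicate 1. The part of either in the histone values was not tested.

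The CANT1 minus wild type difference, as a signed value, was higher in OCM1 than in MUM2B for 10 of 25 histone genes on replicates 2 and 3, and lower for 0. It can be higher because a gene rose in OCM1 or because it fell in MUM2B. Over all genes 11.3% were called higher and 10.6% lower. Of the 10, 8 were clustered genes (of 16) and 2 replacement genes (of 9), and without H2AC8 and H2AC11 there were 8 of 23. On all arrays 0 of 29 were called in either direction, against 0.0393% and 0.00786% of all genes, and 6 of 29 and 634 of all genes had an unadjusted p under 0.05. The smallest p values among clustered genes there were those of H2AC6 (1.39 ± 0.23, limma adjusted p = 0.223), H2BC11 (0.60 ± 0.18, limma adjusted p = 0.783) and H2AC8 (0.99 ± 0.32, limma adjusted p = 0.825).

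H2BC12 differed by 1.56 ± 0.18 on replicates 2 and 3 (limma adjusted p = 0.000271), and by −0.54 on replicate 1. H2AC6 differed by 1.45 ± 0.15 (limma adjusted p = 0.000142) and by 1.26 on replicate 1. H1-2 differed by 1.11 ± 0.17 (limma adjusted p = 0.00142) but by −0.10 on replicate 1, where it was higher in the CANT1 cells of both lines. H2AC8 differed by 1.04 ± 0.14 and by 0.90 on replicate 1. The other clustered genes were H2AC11 (0.88 ± 0.17, −0.083 on replicate 1), H2BC5 (0.79 ± 0.19, 0.19), H2BC21 (0.73 ± 0.13, 0.36) and H3C4 (0.57 ± 0.15, 0.20). H2BC5 was lost without the wild type or the CANT1 OCM1 array of replicate 2, with a limma adjusted p of up to 0.0534. H3C4 was lost without either of these or without MUM2B wild type replicate 2 or CANT1 replicate 3, with a limma adjusted p of up to 0.0741.

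The 2 replacement genes were H2AX (0.62 ± 0.17, limma adjusted p = 0.024), which fell in MUM2B and was near zero in OCM1, and H3-3B (0.58 ± 0.12, limma adjusted p = 0.00762), which rose in OCM1 and was near zero in MUM2B. H2AX read −1.56 and H3-3B 0.0045 on replicate 1. The call of H2AX was lost in 5 of 18 alternatives, 4 of them leaving out an array (MUM2B wild type replicate 2, MUM2B CANT1 replicate 3, OCM1 wild type replicate 2 or OCM1 CANT1 replicate 3), with a limma adjusted p of up to 0.0788. The other 7 replacement genes ran from −0.44 (H1-10) to 0.25 (H1-7) and were not called.

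Over all genes on replicates 2 and 3, 11.3% were called higher and 10.6% lower. The list counts in this paragraph are to be read beside these shares. Those of S phase replication and chaperones lie near or below them. Of the lists, mitosis genes gave 9 of 20 lower and 0 higher signed values in OCM1 on the same arrays, led by UBE2C (−1.03 ± 0.14, limma adjusted p = 0.000876), with −2.07 on replicate 1. S phase replication gave 1 higher and 2 lower of 25, and transcription and S phase entry 3 and 1 of 9. CCNE2, in both, was the largest at 1.24 ± 0.32 (limma adjusted p = 0.0187), with −2.60 on replicate 1. Processing and decay gave 1 higher and 3 lower of 21, led by LSM11 (−0.64 ± 0.14, limma adjusted p = 0.0089), with 0.57 on replicate 1. Chaperones gave 3 and 3 of 28, led by ASF1A (0.92 ± 0.16, limma adjusted p = 0.00283), with −1.28 on replicate 1. Replicate 1 thus had the opposite sign for each of these but UBE2C.

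The lines also differed in histone genes before any CANT1. Among wild type cells on replicates 2 and 3, 8 of 25 histone genes were higher in OCM1, where 35.2% of all genes were, and 5 were lower, where 29.5% of all genes were. All 6 clustered calls were higher in OCM1, and all 5 lower calls were replacement genes. On all arrays 3 of 29 were higher and 2 lower, against 19.1% and 13.9% of all genes. Without the genes that reached the minimum only in OCM1, 6 of 23 and 2 of 26 were higher, among them 4 of 14 and 2 of 17 clustered genes. These shares lie near or below those of all genes, so the histone genes are not set apart by their number.

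H1-2 was 135 to 178 in wild type MUM2B cells and 593 to 613 in wild type OCM1 cells, with no overlap over 3 arrays each. It was higher in OCM1 by 1.67 ± 0.12 on replicates 2 and 3 (limma adjusted p = 1.61e-07), by 1.91 on replicate 1 and by 1.75 ± 0.20 on all arrays (limma adjusted p = 0.000158). H1-2 kept the call in all alternatives that tested it in both fits. The alternative without x_at or s_at probe sets could not, since its only probe set is an _x_at set. H4C12, an H4 gene, was at 292 and 267 in MUM2B and 676 and 503 in OCM1, but at 352 and 351 on replicate 1. It was higher by 0.98 ± 0.15 on replicates 2 and 3 (limma adjusted p = 0.000113), and its call on all arrays (0.65 ± 0.22, limma adjusted p = 0.0439) was lost in 12 of 23 alternatives, 8 of them leaving out 1 array (OCM1 CANT1 replicate 1, or any of replicates 2 and 3 other than MUM2B CANT1 replicate 3), with an adjusted p of up to 0.159. H4C9 was tested on all arrays only and reached the minimum only in OCM1. It was higher by 0.53 ± 0.16 (limma adjusted p = 0.0303), a call lost without either MUM2B wild type array of replicates 2 and 3 or without OCM1 wild type replicate 2, with an adjusted p of up to 0.116. H2BC21 (0.77 ± 0.09), H2AC11 (0.70 ± 0.12), H2AC8 (0.60 ± 0.10) and H2AC6 (0.56 ± 0.10) were the others called on replicates 2 and 3. On replicate 1 these 4 read between −0.26 and 0.25. Dimmer probe sets of H2BC21, H2AC11 and H2AC8 read 0.10, 0.40 and 0.36 on replicates 2 and 3.

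MACROH2A2, which encodes a macroH2A of repressed chromatin, had the largest difference of a replacement gene. It was at 486 and 453 in wild type and 479 and 579 in CANT1 MUM2B cells, and at 80.2 and 71.0 in wild type and 93.8 and 105 in CANT1 OCM1 cells. On replicate 1 the order of the wild type cells was turned, with 119 in MUM2B and 275 in OCM1, and the CANT1 cells stood at 177 and 60.1. The OCM1 minus MUM2B difference on replicates 2 and 3 was −2.22 ± 0.11 (limma adjusted p = 7.63e-09) among wild type cells, with 1.03 on replicate 1. H2AX was at −1.21 ± 0.12 there (limma adjusted p = 3.48e-06), and at 1.04 on replicate 1.

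MACROH2A1 (−0.64 ± 0.09, 0.28 on replicate 1), H3-3B (−0.63 ± 0.09, −0.27) and H2AZ2 (−0.52 ± 0.10, −0.37) were the other lower genes. H1-10 (0.87 ± 0.15, 0.75 on replicate 1) and H2AZ1 (0.52 ± 0.09, 0.34) were higher. The difference of H1-10 was −0.011 when probe sets that can bind related transcripts were left out, which uses its dim probe set. H3-3B (−0.51 ± 0.11, limma adjusted p = 0.00757) and H2AZ2 (−0.47 ± 0.14, limma adjusted p = 0.0264) were also called on all arrays. There H3-3B was lost with the mean of its probe sets (−0.15, limma adjusted p = 0.268). H2AZ2 was lost there in 6 of 23 alternatives, with a limma adjusted p of up to 0.152. These included no x_at or s_at probe sets, the mean of its probe sets and no set term. The others left out either MUM2B wild type array of replicates 2 and 3 or OCM1 wild type replicate 2. The dimmest of the H3-3B probe sets read 0.85 against −0.44 to −0.63 for the other 3 on replicates 2 and 3. H2AJ and H1-7 were not called in wild type cells (0.029 ± 0.13 and 0.14 ± 0.13), and read −1.32 and −0.025 on replicate 1.

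Among CANT1 cells more clustered genes were higher in OCM1. On replicates 2 and 3, 12 of 25 histone genes were higher, where 38.2% of all genes were, and 4 were lower, where 28.1% of all genes were. Of the 16 clustered genes 9 were higher and 0 lower, and of the 9 replacement genes 3 were higher and 4 lower. On all arrays 11 of 29 were higher and 3 lower, against 21.2% and 16.1% of all genes. All 11 were clustered genes and all 3 were replacement genes. H2AC8, H2BC11 and H4C9 are among the 11 and passed the filter only through OCM1, and without them 8 of 26 were higher. On replicates 2 and 3, 10 of 23 were higher without H2AC8 and H2AC11, among them 7 of 14 clustered genes. The CANT1 groups of this comparison are also those of the CANT1 comparisons above, so its values are not independent of them.

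On all arrays H1-2 was higher in OCM1 CANT1 cells by 2.46 ± 0.20 (limma adjusted p = 1.6e-05), H2AC6 by 1.79 ± 0.17 (limma adjusted p = 3.7e-05), H2BC12 by 1.33 ± 0.27 (limma adjusted p = 0.00389) and H2AC8 by 1.31 ± 0.23 (limma adjusted p = 0.00181). On the 3 arrays of each group these genes did not overlap. H2BC21 (1.12 ± 0.26) and H2AC11 (1.11 ± 0.25) followed, and 5 more clustered genes ran from 0.43 (H3C4) to 0.94 (H4C12). The differences on replicates 2 and 3 alone were larger, at 2.78 ± 0.12 for H1-2, 2.01 ± 0.10 for H2AC6, 1.64 ± 0.10 for H2AC8, 1.61 ± 0.12 for H2BC12, 1.58 ± 0.12 for H2AC11 and 1.50 ± 0.09 for H2BC21, while replicate 1 read 1.80, 1.33, 0.64, 0.79, 0.17 and 0.36. H2BC5 (0.71 ± 0.21) and H3C4 were lost on all arrays without any 1 of the 4 CANT1 arrays of replicates 2 and 3, with a limma adjusted p of up to 0.108 and 0.11.

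The replacement genes lower in OCM1 CANT1 cells on all arrays were MACROH2A2 (−1.79 ± 0.56, limma adjusted p = 0.0306), H2AZ2 (−0.76 ± 0.14, limma adjusted p = 0.00219) and MACROH2A1 (−0.64 ± 0.18, limma adjusted p = 0.0214). MACROH2A1 and MACROH2A2 were lost without any 1 of the 4 CANT1 arrays of replicates 2 and 3, and MACROH2A2 also without OCM1 CANT1 replicate 1, with an adjusted p of up to 0.0787 and 0.108. On replicates 2 and 3 these 3 were at −2.09 ± 0.11, −0.66 ± 0.10 and −0.78 ± 0.09, and H2AX at −0.58 ± 0.12, while replicate 1 read −1.18, −0.96, −0.37 and −0.52. H1-10 (0.43 ± 0.15, −0.042 on replicate 1), H1-7 (0.40 ± 0.13, 0.24) and H2AZ1 (0.35 ± 0.09, 0.69) were higher. H1-10 was lost without the MUM2B or the OCM1 CANT1 array of replicate 2, and H1-7 without MUM2B CANT1 replicate 3 or OCM1 CANT1 replicate 2, with a limma adjusted p of up to 0.791 and 0.165 over the alternatives. H3-3B, lower in wild type OCM1 cells, was at −0.045 ± 0.09 among CANT1 cells (−0.27 on replicate 1), and H2AJ at −0.30 ± 0.13 (−0.42), neither called.

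The genes of the histone supply and cell cycle lists were also compared between the lines on replicates 2 and 3. Over all genes 35.2% were higher and 29.5% lower in OCM1 among wild type cells, and 38.2% and 28.1% among CANT1 cells. The list counts in this and the next paragraph are to be read beside these shares. Mitosis genes were lower in OCM1 for 10 of 20 and higher for 2 among wild type cells, and lower for 18 and higher for 0 among CANT1 cells. UBE2C was at −1.75 ± 0.10 (limma adjusted p = 2.74e-08) and −2.78 ± 0.10 (limma adjusted p = 5.36e-10), with −0.12 and −2.19 on replicate 1. S phase replication genes were lower for 13 of 25 and higher for 3 among wild type cells, and lower for 10 and higher for 2 among CANT1 cells. CCNE2 led among wild type cells (−2.27 ± 0.23, limma adjusted p = 3.32e-06), with 1.70 on replicate 1, and MCM5 among CANT1 cells (−1.38 ± 0.12, limma adjusted p = 9.84e-07), with −0.38 on replicate 1. Of 9 genes of transcription and S phase entry 3 were higher and 3 lower among wild type cells, and 2 and 2 among CANT1 cells, where CCNE1 led (1.89 ± 0.11, limma adjusted p = 2.74e-08).

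Processing and decay genes were higher for 4 and lower for 12 of 21 among wild type cells, and for 3 and 11 among CANT1 cells. NCBP1 led among wild type cells (−1.09 ± 0.12, limma adjusted p = 6.35e-06), with −0.10 on replicate 1, and TUT7 among CANT1 cells (−1.18 ± 0.12, limma adjusted p = 4.32e-06), with −1.01 on replicate 1. Chaperones were higher for 5 and lower for 9 of 28 among wild type cells, and for 7 and 10 among CANT1 cells. These chaperone counts lie near or below the shares of all genes given above. ASF1A led among wild type cells (−1.66 ± 0.11, limma adjusted p = 1.08e-07), with 0.22 on replicate 1, and HJURP among CANT1 cells (−0.87 ± 0.09, limma adjusted p = 6.7e-06), with −0.29 on replicate 1. Single markers of other cell types differed between the lines too. Summed signals of 4 endothelial markers ran from 2662 to 4905 in MUM2B and 310 to 481 in OCM1. Those of 5 fibroblast markers ran from 254 to 343 and 406 to 1714. On replicates 2 and 3, 3 endothelial genes were tested. In OCM1 0 were higher and 1 lower among wild type cells, and 1 and 2 among CANT1 cells. The cadherin CDH5 was lower in both, at −4.88 ± 0.15 (limma adjusted p = 1.3e-10) and −5.39 ± 0.15 (limma adjusted p = 6.1e-11). Among CANT1 cells PECAM1 was lower (−0.50 ± 0.18, limma adjusted p = 0.0248) and VWF higher (0.36 ± 0.13, limma adjusted p = 0.0325). Of 2 tested fibroblast genes 1 was called, the matrix gene LUM. It was at 4.59 ± 0.12 (limma adjusted p = 2.73e-11) and 4.41 ± 0.12 (limma adjusted p = 3.62e-11) among wild type and CANT1 cells, with 0.61 and 4.43 on replicate 1. The part of any of these in the histone values was not tested.

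**Figure D4:**
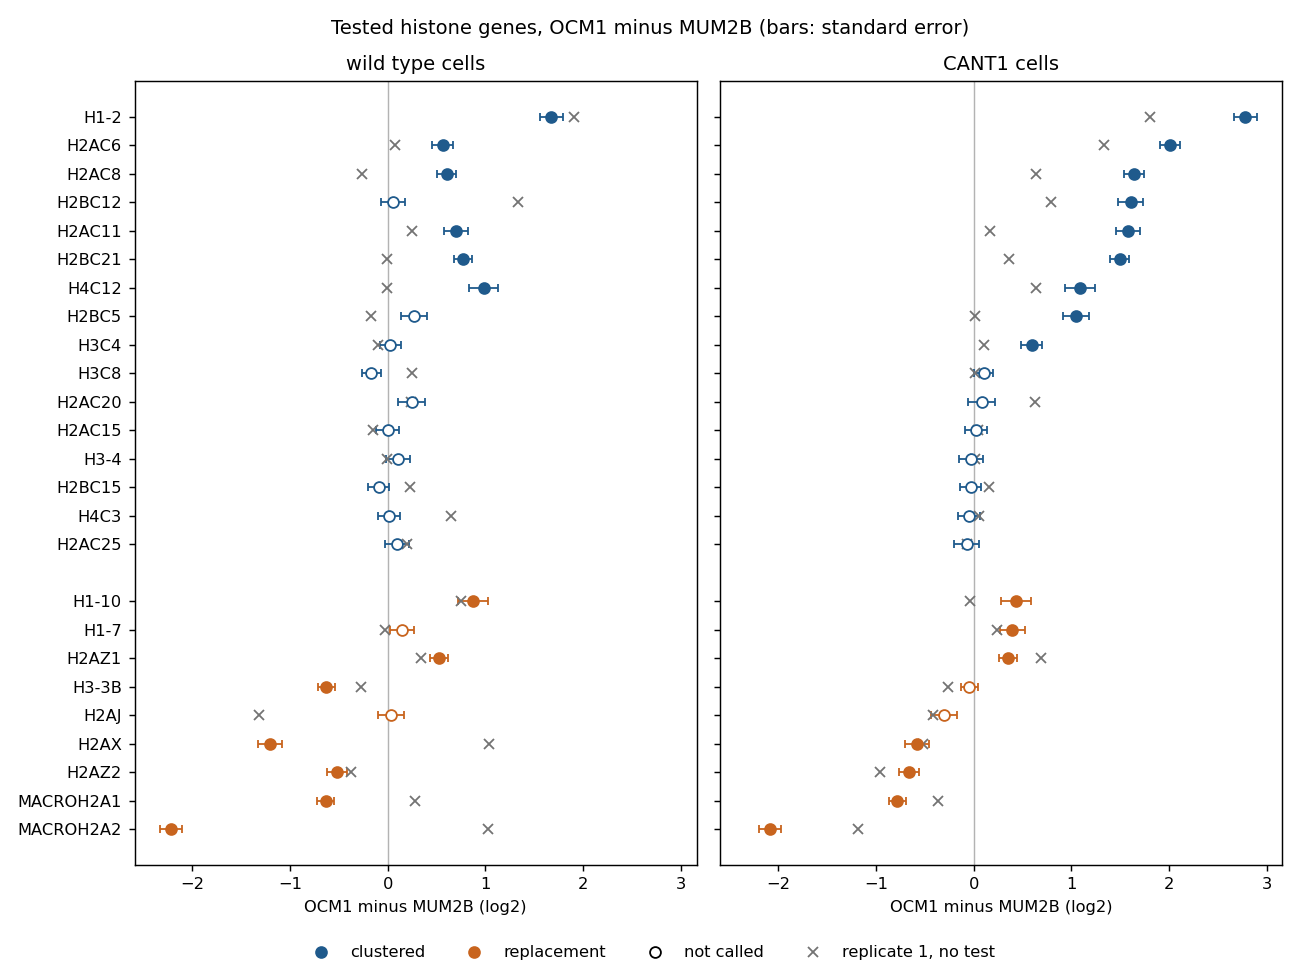
The OCM1 minus MUM2B difference (log2, dots with standard error bars) on replicates 2 and 3 is shown for 25 tested histone genes in wild type and CANT1 cells, filled where called, with replicate 1 as grey crosses. Clustered genes that were called lie on the right of zero, up to 1.67 in wild type and 2.78 in CANT1 cells, and MACROH2A2 is the lowest replacement gene in both.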

How the data were processed

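Each of the 12 arrays gives 1 deposited value per probe set. The submitters' processing notes name MAS5, and the deposited values were read as log2 signals from their range. The log base and normalization are not given in the sources used here. Values were taken out of log2, multiplied on each array so that the mean without the highest and lowest 2% of probe sets was 500 (scale factors 1.16 to 1.23 on replicate 1, 1.62 to 1.78 on the others), and returned to log2 with 32 added. A shift of all genes could not have been seen after scaling. Of 49395 probe sets, 102 were controls, 44988 named 1 gene, 1832 several and 2473 none, and names were matched to RefSeq for 44961.

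limma 3.58.1, run under R 4.3.3 with lmFit and eBayes and Benjamini-Hochberg adjustment, gave the tests, with 1 term per group, plus 1 for the labelled set where all arrays were used, over 12715 genes on all arrays or 12105 on replicates 2 and 3. The code was tested on simulated data. CANT1 was compared with wild type per line, these differences with each other, and OCM1 with MUM2B within wild type and within CANT1 cells.

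The members and lists were chosen with earlier results of these data known. The text names every replacement gene with a probe set of its own and, per comparison and fit, the 6 called clustered genes with the largest difference (the 3 smallest p-values where none was called), plus, for CANT1 on replicates 2 and 3, up to 4 called genes of each list (2 for S phase and mitosis). For the lines and the difference of effects, the lists are given by counts and the called gene with the largest difference. H2BC11, H3C4, H2AC25, H3-4, TYRP1, CDH5, PECAM1, VWF and LUM, where named outside this rule, were chosen after their values were seen. Alternatives covered other scalings, offsets, filters, probe set choices, no set term, the replicate block, the arrays fitted and each array left out. The epithelial, fibroblast, endothelial, immune and erythroid marker lists had 2, 2, 3, 1 and 1 genes tested; for CANT1 on replicates 2 and 3, CDH5 (0.72) and CD68 (0.60) rose in MUM2B and no other member of these lists was called in either line.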

Additional observations from a re-analysis of the deposited data

Results flagged for a closer look

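By the test of the difference itself on replicates 2 and 3, the effect of CANT1 differed between the lines for 10 histone genes. All 10 had the higher signed value in OCM1. They were 8 of 16 tested clustered and 2 of 9 tested replacement genes, where 11.3% of all genes were called higher and 10.6% lower. H2AC8 and H2AC11 reached the signal minimum only in OCM1, and without them 8 of 23 were called. On all arrays 0 of 29 were called, against 0.0393% higher and 0.00786% lower of all genes. For the clustered H2A and H2B genes the log2 differences were 1.56 for H2BC12, 1.45 for H2AC6, 1.04 for H2AC8, 0.88 for H2AC11, 0.79 for H2BC5 and 0.73 for H2BC21. The linker histone H1-2 was at 1.11 and the H3 gene H3C4 at 0.57. The replacement genes H2AX and H3-3B were at 0.62 and 0.58. Replicate 1 was not used by the test on replicates 2 and 3. It had the same sign for H2AC6, H2AC8, H2BC21, H2BC5, H3C4 and H3-3B, the last at 0.0045. The sign was opposite for H2BC12, H1-2, H2AC11 and H2AX. Groups of 2 or 3 arrays are too small for a check for single arrays that stand out.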

How the results depend on the processing

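Replicates 2 and 3 alone and all 12 arrays gave different counts for CANT1, and no histone gene was called for MUM2B with all arrays under any alternative. Over 76 called values, 1431 alternative values were computed, of which 1318 kept the call, 112 lost it and 1 turned, H1-10 between wild type lines on replicates 2 and 3 without x_at or s_at probe sets (−0.011). Class medians moved in 63 of 416 alternatives, by at least 1 SD of the class's median level between arrays of a group. The cause of these moves was not tested. With all arrays, the OCM1 count for CANT1 of 1 became 0 without x_at or s_at probe sets, without the set term, with only the arrays compared, and 0 to 3 with 1 array left out. The difference between lines in CANT1 effect ranged from 0 to 1 with 1 array left out. Wild type lines (5) gave 2 without x_at or s_at probe sets, 2 with the mean of all probe sets and 2 without the set term, and 2 to 11 with 1 array left out. CANT1 lines (14) gave 8 with the filter at 200, 9 without x_at or s_at probe sets, and 8 to 16 with 1 array left out. On replicates 2 and 3, MUM2B (6) gave 3 without x_at or s_at probe sets and 2 to 6 with 1 array left out. OCM1 (11) gave 7 with the filter at 200, 7 without x_at or s_at probe sets and 7 to 12 with 1 array left out. The difference in effect (10) gave 5 with the filter at 200. Wild type lines (13) gave 8 without x_at or s_at probe sets. CANT1 lines (16) gave 26 with no filter, where all 74 histone genes with a probe set of their own were tested. They gave 10 with the filter at 200, which tests fewer genes. The number tested changes with the setting, so these counts are not to be compared as shares. On all arrays 29 histone genes were tested in the main fit, 16 with the filter at 200 and 18 without x_at or s_at probe sets. The shares of all genes called in the main fits are those given above. A signal near background limits the dim clustered genes.

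The labels share replicate numbers between groups, but same-numbered wild type and CANT1 arrays deviated together at r = 0.24, 0.46 and 0.029 in MUM2B and 0.17, 0.14 and 0.14 in OCM1, so the numbers do not pair every array. With the replicate block on all arrays, the counts were 0 in MUM2B, 0 in OCM1, 0 for the difference, 5 for wild type and 14 for CANT1 lines, and on replicates 2 and 3 they were 5, 11, 10, 13 and 16. Because replicates 2 and 3 of OCM1 gave r = −0.12, a block with the OCM1 CANT1 numbers crossed was added after seeing the data, and gave 6, 11, 10, 13 and 17.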
